A study of Mus musculus with 17 samples.

Results

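The 9 mouse livers sampled 24 h after acetaminophen (APAP) were divided by their level of Lcn2 mRNA, whatever their genotype label. Lcn2 encodes lipocalin 2, a secreted protein that binds iron-carrying siderophores and is made in the acute phase response. Livers with at least 400 FPKM of Lcn2 (sequenced fragments per transcript length and library size) were called strong and the others mild, which gave 5 strong and 4 mild livers of 17 in the series. The strong livers were Het APAP 2 (2034 FPKM of Lcn2), Het APAP 3 (1002), Het APAP 1 (850), WT APAP 3 (800) and OE APAP 2 (725). The mild livers were OE APAP 300 (143), WT APAP 2 (88.4), WT APAP 1 (34.7) and OE APAP 1 (8.57). The values next to the threshold were thus 725 and 143 FPKM, and 8 saline livers had 2.50 to 19.1 FPKM. Since the sets were chosen by a measured value, Lcn2 FPKM, every strong against mild difference below is a description of these livers, with no test, and Lcn2 itself is not counted among the results.

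All mice were male C57BL/6 animals. WT stands for the label Nampt +/+, Het for Nampt +/- and OE for Nampt OE. Nampt makes nicotinamide mononucleotide, a precursor of NAD, and the labels do not say what drives the overexpression. The APAP livers were 3 WT, 3 Het and 2 OE livers given 200 mg/kg and 1 OE liver given 300 mg/kg, called OE APAP 300. The saline livers were 3 WT, 2 Het and 2 OE livers and 1 WT liver with saline by the IG route. Mice were 11 weeks old except OE APAP 2, OE APAP 300 and 2 WT saline mice, which were 12 weeks old. The sets crossed the labels unevenly: 3 of 3 Het, 1 of 3 WT and 1 of 3 OE livers were strong, and the single liver given 300 mg/kg was mild. Het APAP 1 and OE APAP 2, both strong, had been perfused and sequenced in lane L008, while lane L004 held OE APAP 1 and OE APAP 300, both mild. The other 5 livers, 3 strong and 2 mild, were not perfused and shared lane L005. Of the saline livers, WT saline 1 and 2 were perfused and in lane L007. Both Het saline livers and OE saline 1 were perfused and in lane L008. WT saline 3 and the IG liver, in lane L006, and OE saline 2, in lane L004, were not perfused. Lane L005, with all 3 WT APAP livers, held no saline liver, so drug and lane cannot be told apart in the WT livers. The numbers in library names only name samples. The labels do not say whether each library is a separate animal. The p-values given near the end thus cover the spread among these libraries, part or all of which may be technical.

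In the acute phase response, cytokines such as interleukin 6 and interleukin 1, released by macrophages and other cells at an injury, act on hepatocytes through STAT3 and NF-kappa B. Hepatocytes then secrete serum amyloid A, haptoglobin, orosomucoid and other plasma proteins and make less of others. APAP overdose injures the hepatocytes around the central vein, where cytochrome P450 enzymes turn it into a reactive quinone imine, and neutrophils and monocytes enter the injured tissue.

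Of 11218 genes averaging at least 1 FPKM in the 9 APAP livers, 410 (3.65%) were higher in all 5 strong livers than in all 4 mild livers, and 335 (2.99%) were lower. Of these, 103 genes (0.918%) were higher and 31 (0.276%) lower with medians at least 2-fold apart on the log2(FPKM + 1) scale, on which every difference below is given as strong minus mild medians. The higher genes included neutrophil, monocyte and acute phase genes and both main metallothioneins. The lower genes included enzymes of fatty acid oxidation and of APAP conjugation. For 79 of the 103 higher and 22 of the 31 lower genes the mild median lay between the saline and the strong medians. All 5 strong livers lay outside the range of the 8 saline livers for 87 of the 103 and 24 of the 31 genes, against 3 and 4 genes for all 4 mild livers. The median difference over all 11218 genes was -0.02, with 5220 above 0 and 5933 below. Of the 103 higher genes 26 had a mean under 1 FPKM in the mild livers and passed the filter on low values only through the strong ones, so that they had to differ. These shares are a background for the counts below, and since the choice of the sets acts on every gene of these livers, nothing is read from a count against them.

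**Figure D1:**
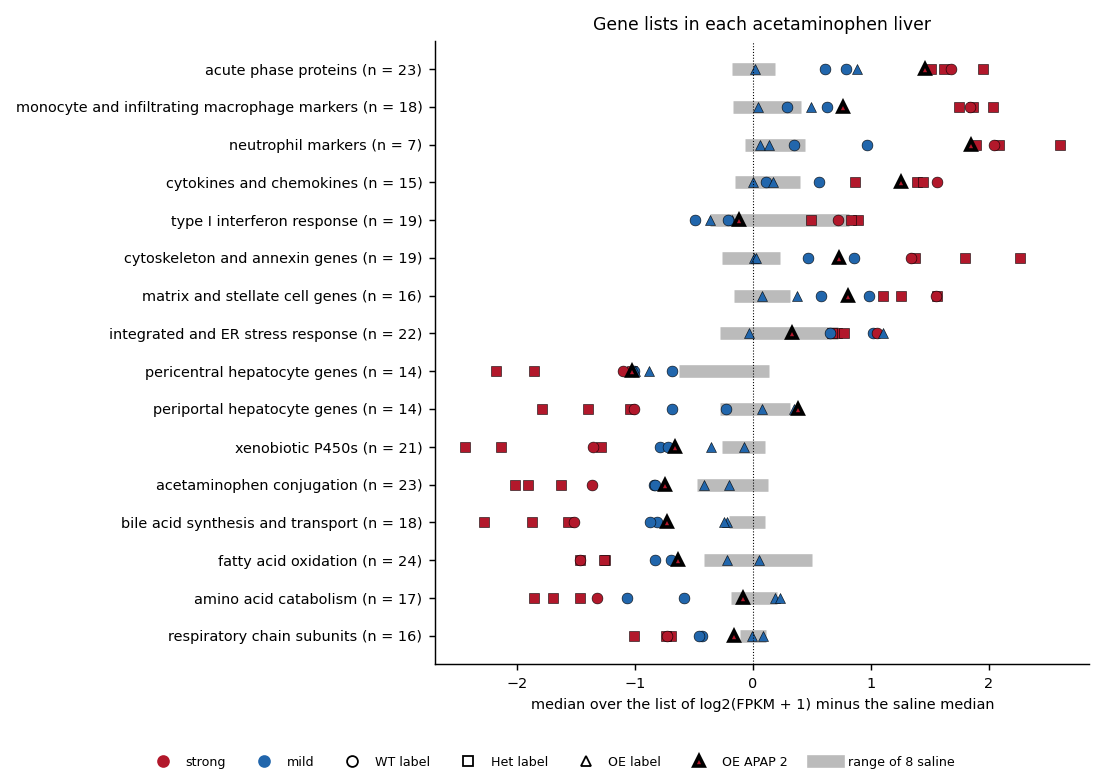
Position of each of the 9 APAP livers on 16 gene lists. On the neutrophil list 4 of 7 genes passed the filter only through the strong livers, so its points are not read. Only that way did 8 of 18 monocyte and 4 of 15 cytokine and chemokine genes pass too. The x axis is the median over the list's genes of log2(FPKM + 1) minus the saline median, grey bars are the range of the 8 saline livers, red and blue points are strong and mild livers, and shapes are genotype labels. On the acute phase list the strong livers sit between 1.46 and 1.95 and the mild livers between 0.02 and 0.88, while on amino acid catabolism OE APAP 2 (heavy outline, -0.09) lies inside the saline range and the other strong livers lie between -1.86 and -1.32.

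Some acute phase genes separated the sets, among them Hp, while the abundant serum amyloids Saa1 and Saa2 overlapped. Of 23 measured acute phase genes 9 were higher in all strong livers and none was lower (median difference 0.91, with 22 of 23 above 0). Saa3, a serum amyloid A of macrophages and other cells, had 281, 43.4, 58.2, 52.3 and 591 FPKM in the strong livers Het APAP 2, 3 and 1, WT APAP 3 and OE APAP 2. In the mild livers OE APAP 300, WT APAP 2, WT APAP 1 and OE APAP 1 it had 14.0, 7.54, 15.7 and 6.08 FPKM. The strong livers were all above the mild ones, with the highest level in OE APAP 2 (difference 2.39, pooled SD of the log2 values 1.33, n = 5 and 4). The mild livers lay close to the saline range of 3.21 to 13.8 FPKM.

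Orm2, an orosomucoid that binds drugs in plasma, had 230, 164, 658, 553 and 178 FPKM in the strong livers, in the same order, and 110, 122, 31.2 and 9.97 in the mild ones. The sets did not overlap (difference 1.95, pooled SD 1.29), but OE APAP 1 lay in the saline range of 5.81 to 20.4 FPKM. Hp, haptoglobin, which captures free haemoglobin, had 5089, 5153, 7060, 5680 and 6977 FPKM against 3797, 3290, 2992 and 1548. Its sets were apart by less than 2-fold (0.86, pooled SD 0.41). Serpina3n, a protease inhibitor (2.05), Il1rn, the interleukin 1 receptor antagonist (1.97), Orm1 (1.17), Cp, the copper carrier ceruloplasmin (1.22), and Cd14, a receptor for bacterial lipopolysaccharide (2.36), were also apart in all livers, as was Steap4, a metalloreductase (0.91).

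Saa1 and Saa2, the main serum amyloids of plasma, had larger differences (3.34 and 3.48, pooled SD 1.73 and 2.06) but overlapped. They were named after their values were seen. Saa1 had 5118, 837, 4769, 3256 and 5808 FPKM in the strong livers and 1782, 380, 579 and 39.5 in the mild ones. Het APAP 3, second in Lcn2, thus had less Saa1 than the mild liver OE APAP 300, and the same was true of Saa2 (621 against 1262 FPKM). Both genes are near copies and can share reads. OE APAP 1 had 39.5 FPKM of Saa1, inside the saline range of 9.59 to 173. Apcs, serum amyloid P (0.64), Fgg, a fibrinogen chain (0.23), Fgl1 (0.57) and Lrg1 (0.72) overlapped as well. For Fgg the mild livers OE APAP 300, WT APAP 2 and WT APAP 1 had 3767, 5240 and 4194 FPKM, above the saline maximum of 2185, and OE APAP 1 had 1219. The mild set was therefore not uniform: on the median of the acute phase list OE APAP 1 stood 0.02 above the saline median, within the saline range of -0.17 to 0.19, and the other mild livers stood 0.61 to 0.88 above it.

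Signalling genes of the pathway were listed apart from its targets. Of 18 IL6 and STAT3 signalling genes 1 was higher in all strong livers, Nfkbiz, a nuclear cofactor of NF-kappa B (0.62), and the list had a median of 0.63. Socs3, the feedback inhibitor of STAT3 signalling, named after its values were seen, had 20.8, 15.8, 16.8, 10.8 and 19.7 FPKM in the strong livers and 8.96, 19.8, 3.11 and 6.05 in the mild ones. WT APAP 2 was as high as the strong livers. Among 14 plasma protein genes known to be lowered in the acute phase, 1 was lower in all strong livers, Rbp4, the carrier of retinol (-0.81), and the median was -0.63. That median was -0.29 with quantile normalisation and 0.08 within the OE livers alone. Alb, the albumin gene, is at 0 in all 17 libraries and gives no check of the tissue, but Apoa1, an apolipoprotein made by hepatocytes, had 3842 to 6672 FPKM in the 9 livers. Of 28 complement and coagulation genes none separated the sets (median -0.33, but -0.079 with quantile normalisation and 0.21 within the OE livers).

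Mt1 and Mt2, small cysteine-rich proteins that bind zinc and copper, separated the sets and stood above saline in nearly every APAP liver. Mt1 (ENSMUSG00000031765, chromosome 8, 94179082 to 94180327, plus strand, GRCm38) had 2357, 1179, 1525, 538 and 1757 FPKM in the strong livers and 348, 226, 183 and 131 in the mild ones, against 6.75 to 106 in saline. All 9 APAP livers were above the saline range (difference 2.90, pooled SD 0.72). Mt2 (chromosome 8, 94172664 to 94173568, plus strand) had 1170, 761, 701, 338 and 1425 FPKM against 201, 86.3, 78.1 and 10.3, and OE APAP 1 lay in the saline range of 1.09 to 36.1 (difference 3.20, pooled SD 1.30). WT APAP 3 was the lowest strong liver for both genes. The other 5 measured genes of the metallothionein and zinc transporter list overlapped.

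Metallothionein genes are known to be switched on by zinc through a metal-responsive transcription factor whose core sites read TGCGCNC or TGCACNC, N being any base. The promoters of the gene pair are printed because these genes moved together between the sets. Both come from RefSeq on GRCm38.p6 and run from 250 bases before to 50 after the annotated start, and capitals mark every match to either core on either strand.
Mt1, chr8:94178839-94179138, plus strand: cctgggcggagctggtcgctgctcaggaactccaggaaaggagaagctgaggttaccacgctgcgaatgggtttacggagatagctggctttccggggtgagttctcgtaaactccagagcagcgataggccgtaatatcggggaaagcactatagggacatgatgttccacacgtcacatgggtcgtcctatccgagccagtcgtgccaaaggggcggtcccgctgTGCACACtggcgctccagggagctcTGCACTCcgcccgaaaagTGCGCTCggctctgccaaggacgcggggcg
Mt2, chr8:94172368-94172667, plus strand: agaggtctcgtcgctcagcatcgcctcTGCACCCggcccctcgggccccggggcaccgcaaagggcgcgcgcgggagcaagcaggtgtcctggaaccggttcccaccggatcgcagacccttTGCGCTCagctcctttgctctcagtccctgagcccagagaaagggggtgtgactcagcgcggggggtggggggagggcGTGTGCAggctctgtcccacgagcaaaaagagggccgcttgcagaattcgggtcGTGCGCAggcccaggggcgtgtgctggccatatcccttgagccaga
The Mt1 window held 3 matches, 1 of TGCGCNC and 2 of TGCACNC, and the Mt2 window held 4, 2 of each. Of 32544 RefSeq promoter windows of the same length, 25.9% held at least 1 match of either core and 1.99% held 3 or more. A match describes letters and is not a binding site.

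Among the genes named by the size of a difference without overlap, myeloid genes came first. S100a8 and S100a9, subunits of calprotectin, a calcium- and zinc-binding protein abundant in neutrophils, lie on chromosome 3 (90668978 to 90670035, plus strand, and 90692632 to 90695721, minus strand). S100a8 had 205, 83.4, 35.1, 40.8 and 28.5 FPKM in the strong livers and 2.82, 5.64, 3.25 and 1.72 in the mild ones, against 0.104 to 2.19 in saline (difference 3.38, pooled SD 0.93). S100a9 gave 3.37 (pooled SD 0.90). Het APAP 2 was highest for both genes, and the lowest strong liver was several times above the highest mild liver. In whole liver RNA, more cells of a type and more RNA per cell cannot be told apart.

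Of 15 listed neutrophil markers 7 averaged at least 1 FPKM, and 4 of those 7 did so only through the strong livers, so no count or median over them is given in the text. One of the 4, Retnlg, a resistin-like protein, had 14.8, 3.20, 1.18, 0.857 and 3.33 FPKM in the strong livers and 0 to 0.711 in the mild ones. The summed level of all 15 listed neutrophil genes was 80.0 to 473 FPKM in the strong livers, 6.7 to 29.7 in the mild ones and 2.2 to 11.3 in saline. In the strong livers most of it was S100a8 and S100a9. They had 205 and 235 FPKM in Het APAP 2 (sum 473) and 28.5 and 38.7 in OE APAP 2 (sum 80.0). Prtn3, another gene of that list, did not follow them, as given at the end. Of 18 monocyte and infiltrating macrophage markers 6 were higher in all strong livers (median 1.42), though 8 of the 18 and 3 of the 6 passed the filter only through the strong livers. Their summed level was 273 to 659 FPKM against 154 to 453, with 143 to 231 in saline. The mild liver WT APAP 2, at 453, stood above the strong liver OE APAP 2, at 273. Lyz2, the lysozyme of phagocytes, had 190, 185, 113, 198 and 89.9 FPKM in the strong livers and 54.1, 46.4, 53.8 and 37.1 in the mild ones (1.87, pooled SD 0.42). Its level in OE APAP 2 lay inside the saline range of 28.8 to 92.0.

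Clec4d and Clec4e, lectin receptors of myeloid cells (2.19 and 1.85), Plac8 (1.50), Cd68, a lysosomal protein of macrophages (1.17), and Trem2, a lipid-sensing receptor of macrophages (0.92), were the other markers apart in all livers. In the mild livers Clec4d had 0.122 to 0.599 FPKM and Clec4e 0 to 0.660. Both passed the filter only through the strong livers, so they had to differ. Ccr2, the receptor that draws monocytes out of the marrow, overlapped because OE APAP 2 had 1.59 FPKM and the mild liver WT APAP 1 had 2.24. Mmp12, a macrophage elastase, had 17.2, 30.7, 22.7, 25.6 and 7.90 FPKM in the strong livers and 0.874, 4.67, 2.74 and 0.585 in the mild ones (3.16, pooled SD 0.78). OE APAP 2 was again the strong liver nearest to the mild set.

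Of 12 Kupffer cell markers only Marco, a scavenger receptor, was higher in all strong livers (2.10, pooled SD 0.79). It had 39.6, 74.1, 40.2, 77.4 and 15.1 FPKM against 7.60, 9.69, 12.6 and 4.50. Clec4f, a lectin specific to Kupffer cells and named after its values were seen, had 20.5 to 43.9 FPKM in the strong and 12.9 to 49.8 in the mild livers. The summed Kupffer markers were 231 to 341 FPKM in the strong livers, 121 to 283 in the mild ones and 144 to 307 in saline. None of 12 lymphocyte markers reached a mean of 1 FPKM, so lymphocytes were not assessed. Sinusoidal endothelial markers had a median of 0.05, with Lyve1, a hyaluronan receptor, higher (1.31) and Bmp2, a regulator of hepatic iron sensing, lower (-0.51) in all strong livers.

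Chemokines of the strong livers included the neutrophil attractants Cxcl1 (0.47) and Cxcl2 (2.19), with Ccl4 (0.89), Ccl6 (2.19) and Cxcl16 (0.48). These 5 of 20 listed cytokine and chemokine genes were higher in all strong livers and none was lower. Of the 20 genes 15 passed the filter, 4 of them only through the strong livers. These 4 include 2 of the 5, Cxcl2 and Ccl4, which therefore had to differ. Cxcl1 had 83.0, 53.7, 47.1, 44.2 and 186 FPKM in the strong livers and 41.3, 43.3, 8.79 and 35.7 in the mild ones, against 3.54 to 15.4 in saline. Thus 3 of 4 mild livers were near the strong set for Cxcl1 and WT APAP 1 was in the saline range. Ccl2, the monocyte attractant, had a larger difference of medians (2.21) but overlapped, since WT APAP 2 had 16.6 FPKM and OE APAP 2 had 12.4.

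Type I interferon response genes had a different distribution over the strong livers. Of 19 genes 3 were higher in all strong livers, the regulator Irf7 (0.72), Rtp4 (1.36) and Ifit2 (0.67), with a median of 0.90 and all 19 differences above 0. Ifit2 passed the filter only through the strong livers. The summed level of the 20 listed genes was 192 to 287 FPKM in the strong livers, 129 to 184 in the mild ones and 123 to 307 in saline. The strong livers thus lay inside the saline range, and Irf7 had medians of 11.8 (strong), 6.77 (mild) and 11.3 FPKM (saline). Isg15, a ubiquitin-like protein induced by interferon and named after its values were seen, had 20.2, 21.7, 15.8 and 18.1 FPKM in the Het livers and WT APAP 3, and 4.03 in OE APAP 2. The mild livers had 2.39 to 5.25 FPKM and the saline livers 1.88 to 9.59. OE APAP 2 was therefore mild for Isg15 while it had the highest Saa3 of the 9 livers. On the list median the mild livers stood below the saline median, at -0.49 to -0.18. OE APAP 2 stood at -0.11 and the other strong livers at 0.49 to 0.89, but saline livers themselves ranged from -0.36 to 0.82. Slfn4, a myeloid gene that interferon induces, had 9.32, 9.96, 6.84 and 6.58 FPKM in those 4 strong livers and 0.785 in OE APAP 2. The mild range was 0.0409 to 0.416 FPKM. Slfn4 too passed the filter only through the strong livers, so it had to differ.

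**Figure D2:**
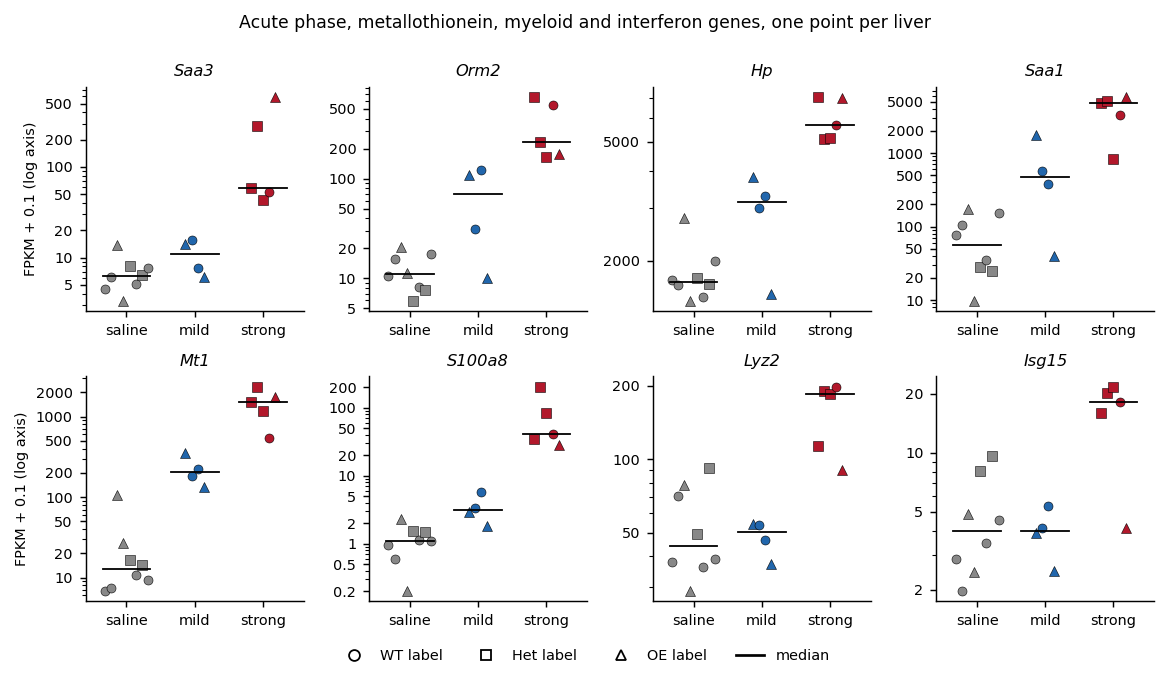
Levels of 8 genes in each liver, as FPKM + 0.1 on a log axis, for 8 saline, 4 mild and 5 strong livers, with lines at the medians and shapes for genotype labels. Saa3, Orm2, Hp, Mt1, S100a8 and Lyz2 do not overlap between mild and strong, Saa1 overlaps through Het APAP 3 (837 FPKM), and Isg15 through OE APAP 2 (4.03 FPKM).

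Cytoskeleton and annexin genes, among them actin-binding and calcium-binding proteins, were higher in all strong livers for 6 of 19 genes (median 1.10). They were S100a11 (2.80), Tmsb10, an actin-binding thymosin (1.94), S100a6 (1.75), Anxa5 (1.05), Tpm4 and Tuba1a. S100a11 had 27.0, 30.5, 24.4, 15.1 and 9.40 FPKM against 2.10, 5.98, 3.26 and 1.60. Of 16 matrix and stellate cell genes the contractile genes Tagln (1.35) and Acta2 (1.15) and the stellate filament Des (0.39) were higher and Reln, a stellate cell glycoprotein, was lower (-0.57). Hmox1, which degrades haem, was the single Nrf2 target higher in all strong livers (1.61, pooled SD 0.57), while catalase, Cat (-1.25), and Gsta2, a glutathione transferase (-1.14), were lower. The erythroid and platelet list included Pf4, a platelet chemokine also present in macrophages (1.58). Haemoglobin did not follow the sets: Hbb-bs had 973 FPKM in Het APAP 2, not perfused, and 26.6 in Het APAP 1, which was perfused. On the erythroid and platelet list the perfused Het APAP 1 and OE APAP 2 stood at -1.53 and -0.84 against saline. The APAP livers that were not perfused stood at -0.41 to 1.88. The part of perfusion was not tested.

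Fatty acid oxidation is carried out in peroxisomes and mitochondria of hepatocytes, and 3 of 24 listed genes were lower in all strong livers. Acaa1b, a peroxisomal thiolase (ENSMUSG00000010651, chromosome 9, 119148023 to 119157093, minus strand), had 26.9, 16.7, 30.4, 24.4 and 41.3 FPKM in the strong livers and 108, 90.2, 46.7 and 159 in the mild ones, against 160 to 502 in saline. The sets did not overlap (difference -1.84, pooled SD 0.59), and every APAP liver was below the saline range. Hadha, of the mitochondrial trifunctional protein, was lower in all strong livers as well (-0.80, but -0.32 with quantile normalisation). The list had a median of -0.84, or -0.54 with quantile normalisation, and the other 21 genes overlapped.

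Of 23 APAP conjugation genes 5 were lower in all strong livers (median -1.05), the glucuronosyltransferases Ugt1a1 (-1.26), Ugt2b34 (-1.20), Ugt2b35 (-1.11) and Ugt1a6a (-0.65) and the glutathione transferase Gsta3 (-1.41). The Ugt genes are close relatives, and Ugt1a1 and Ugt1a6a share exons, so reads can be split between them. Gsta3 had 243, 115, 356, 262 and 587 FPKM in the strong livers and 1105, 622, 604 and 784 in the mild ones, against 945 to 1525 in saline. OE APAP 2 lay just below the mild livers WT APAP 1 and 2. Slc10a1, which takes bile acids up from blood (-1.31, pooled SD 0.60), and Abcc2, a pump that exports conjugates into bile (-0.74), were lower in all strong livers among 18 bile acid genes (median -0.83, all 18 below 0). Cyp7a1, which starts the classic route of bile acid synthesis, named after its values were seen, had a median difference of -3.01 but overlapped: WT APAP 3 had 9.21 FPKM, more than WT APAP 2 with 5.82.

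Cytochrome P450 genes, some of which encode the enzymes that activate APAP, all had lower medians in the strong livers, and none of 21 separated the sets (median -1.19). Cyp3a11, named after its values were seen, had 110, 46.7, 170 and 106 FPKM in the Het livers and WT APAP 3, and 807 in OE APAP 2. The mild livers had 458 to 1623 FPKM and the saline livers 960 to 2149. OE APAP 2 thus lay among the mild livers. Cyp2e1, the main enzyme of APAP activation, had 210, 122, 462, 228 and 446 FPKM in the strong and 829, 813, 438 and 1016 in the mild livers, against a saline median of 2123. Only WT APAP 1, the lowest mild liver at 438, overlapped with the strong set.

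Cps1, carbamoyl phosphate synthetase of the urea cycle and of periportal hepatocytes, was lower in all strong livers (284, 220, 403, 446 and 708 FPKM against 849, 738, 788 and 1310). It was the single gene of 14 urea cycle and gluconeogenesis genes and of 14 periportal genes to separate the sets (-1.02, pooled SD 0.54, list medians -0.82, or -0.54 with quantile normalisation, and -0.79). Of the pericentral genes 1 of 14 did so, the transcription factor Tbx3 (-0.75). With 0.713 to 1.06 FPKM in the strong livers, Tbx3 passed the filter only through the mild ones, so it had to differ. Among 16 respiratory chain subunits Ndufs1 of complex I (-0.65) and Cox5a of complex IV (-0.53) were lower (median -0.51). With quantile normalisation these values were -0.27, -0.24 and -0.21. Foxa1 was lower (-0.56) among 15 hepatocyte transcription factors (median -0.40), and Nadk2 (-0.78) and Aox1 (-0.60) among 19 genes of NAD synthesis and nicotinamide clearance (median -0.48). With quantile normalisation Nadk2 had -0.45 and the last list a median of -0.27.

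Outside the lists, the lower genes included the carboxylesterases Ces1d (-1.82) and Ces1e (-1.60), which are close copies, and Dpys (-1.60) and Dpyd (-1.59), which degrade pyrimidines. Abcd2, a peroxisomal fatty acid transporter (-1.75), Crot, a peroxisomal carnitine acyltransferase (-1.44), Aldh3a2, a fatty aldehyde dehydrogenase (-1.38), and Prlr, the prolactin receptor (-1.49), were lower too. For Abcd2, Dpyd, Prlr and Crot the mild livers were near saline: Prlr had 33.0, 38.4, 26.2 and 20.0 FPKM in the mild livers and 14.7 to 31.3 in saline, and 6.16, 4.92, 18.3, 9.81 and 17.0 in the strong ones. Aldh3a2 and Acaa1b, in contrast, were already lower in the mild set, by 1.46 and 1.36 below the saline medians.

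**Figure D3:**
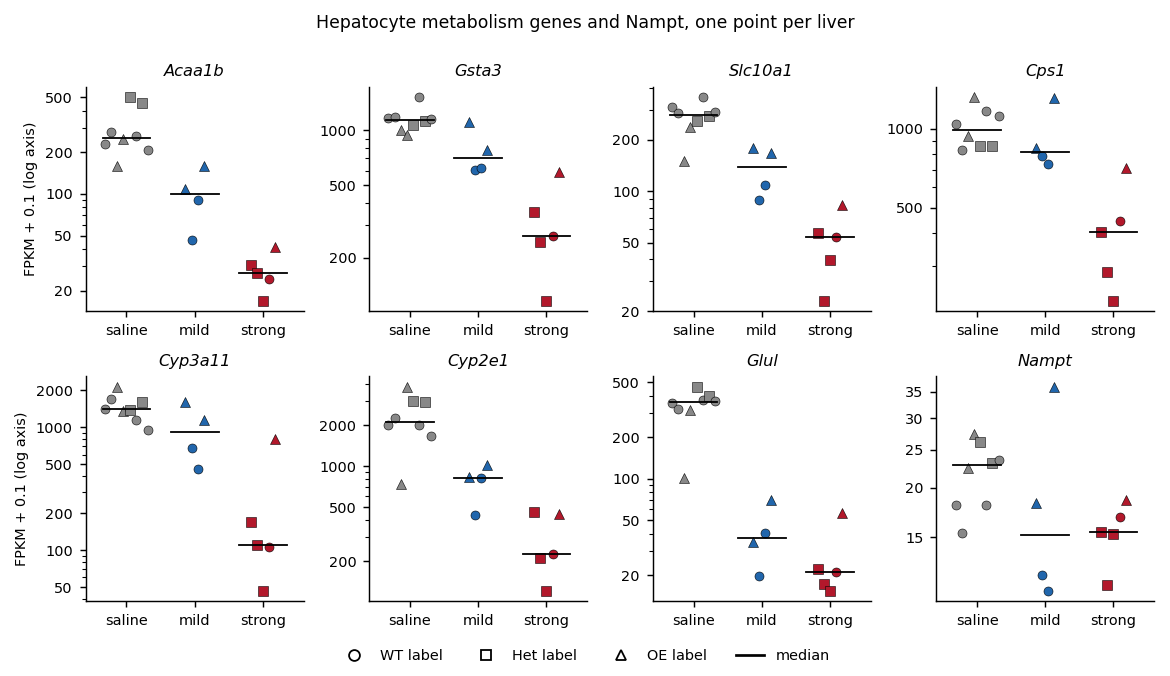
Levels of 8 genes in each liver, as FPKM + 0.1 on a log axis, with groups, lines and shapes as in the plot of higher genes. Acaa1b, Gsta3, Slc10a1 and Cps1 do not overlap between mild and strong, Cyp3a11 and Cyp2e1 overlap through 1 liver each (OE APAP 2 at 807 FPKM and WT APAP 1 at 438 FPKM), Glul is below saline in every APAP liver, and Nampt has nearly the same median in both sets (15.4 and 15.1 FPKM).

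Some APAP-related genes did not distinguish the sets. Glul, the glutamine synthetase made in the hepatocyte layer around central veins, had 17.1, 15.3, 22.1, 20.8 and 56.3 FPKM in the strong livers and 34.8, 40.1, 19.7 and 70.5 in the mild ones, against 102 to 466 in saline. All 9 APAP livers were below all saline livers, the mild liver OE APAP 1 being the highest of the 9, and the strong and mild sets overlapped (-0.81, pooled SD 0.73). Glul was named after its values were seen. The list for the integrated stress response and that of the endoplasmic reticulum had a median of 0.06, with none of 22 apart. Their median over saline was 0.72 in the mild and 0.67 in the strong set. Ddit3, a transcription factor of that response, had 10.8 to 31.2 FPKM in the strong livers and 3.60 to 42.9 in the mild ones, the highest being OE APAP 1. None of the p53, cell cycle, clock, cholesterol synthesis, lipogenesis, amino acid catabolism, or growth hormone and male-biased genes separated the sets. Some of these lists still had lower medians in the strong livers. The median difference was -0.92 for amino acid catabolism, with all 17 genes below 0. It was -0.997 for growth hormone and male-biased genes and -0.62 for lipogenesis, each with 13 of 15 genes below 0. Within the OE livers the medians of these 2 lists were 0.36 and 0.53, in that order. The p53, cell cycle, clock and cholesterol synthesis medians were 0.21, 0.36, -0.17 and -0.16. For cholesterol synthesis the median difference was -0.48 within the WT livers and 1.10 within the OE livers, and OE APAP 1 stood 2.23 below the saline median.

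Nampt, the gene that the genotypes alter, had 11.3, 15.2, 15.4, 16.7 and 18.5 FPKM in the strong livers and 18.2, 10.9, 12.0 and 36.0 in the mild ones. The sets overlapped entirely (0.05, pooled SD 0.52), and both medians were near the low end of the saline range of 15.3 to 27.2 FPKM. The highest value, 36.0, was that of OE APAP 1, which had the lowest Lcn2 of the 9 livers.

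The strong livers were not alike. OE APAP 2 was the strong liver nearest to the mild set for 84 of the 103 higher and 26 of the 31 lower genes, and it was the highest of the 9 livers for 3 of the 103. Het APAP 2 was highest for 40 and Het APAP 3 for 37. OE APAP 2 was just below the other strong livers on the acute phase list (1.46 over saline against 1.51 to 1.95). It was near the mild livers on xenobiotic P450s (-0.66 against -2.44 to -1.29 in the other strong and -0.79 to -0.08 in the mild livers). On amino acid catabolism it stood at -0.09, with the others between -1.86 and -1.32, and on periportal genes at 0.39, with the others between -1.79 and -1.01. Without OE APAP 2, 267 genes were higher and 222 lower, 101 and 31 of them among the 103 and 31. OE APAP 2 shared perfusion and lane L008 with Het APAP 1, which stood at -1.29 on the P450 list and -1.47 on amino acid catabolism. The part of genotype, age, lane and perfusion in the position of OE APAP 2 was not tested.

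Perfusion, lane, genotype and dose could be held constant in part. Within lane L005, 3 strong and 2 mild livers, all at 200 mg/kg and not perfused, 339 genes were higher and 299 lower, among them 95 of the 103 and 25 of the 31. Within the WT livers, WT APAP 3 against WT APAP 1 and 2, which share lane, dose and age, 333 genes were higher and 127 lower, among them 80 of the 103 and 16 of the 31. Within the OE livers 280 were higher and 151 lower, among them 47 and 9. The 103 and 31 genes were chosen on sets that hold these livers, so no overlap within a label was fixed by that choice and is no support. Without the Het livers 89 genes were higher and 20 lower (61 and 9 shared). With a threshold of 800 FPKM, which moves WT APAP 3 and OE APAP 2 and leaves the Het livers alone in the strong set, 97 were higher and 138 lower, and 27 and 5 were shared. At 200 FPKM the sets are the same as at 400.

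The genotype comparisons that the labels define were tested with limma, and their counts moved with single livers. Averaged over labels, APAP minus saline gave 1087 genes higher (9.8%) and 1474 lower (13.3%), together 23.1% of 11090 tested, at an adjusted p of 0.05. Of the 34 named genes higher in the strong livers and fitted here 20 rose in that fit and of the 34 lower ones 25 fell. Mt1 rose by 5.37 ± 0.56 (SE, limma adjusted p = 0.000456) and Acaa1b fell by 2.84 ± 0.36. These APAP livers also define the sets, so this is no independent support. Het minus WT after APAP gave 1 gene higher (0.00902%) and 5 lower (0.0451%), together 0.0541%, against 2120 at an unadjusted p under 0.05, and included none of the named genes. OE minus Het gave 969 genes higher (8.74%) and 549 lower (4.95%), together 1518 or 13.7%, and the comparisons share the Het livers.

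Het minus WT gave 852 genes without WT APAP 3, the strong WT liver, 561 without Het APAP 1 and 258 without WT saline 3. OE minus Het gave 5 genes without OE APAP 1, the liver with the lowest Lcn2, which leaves OE APAP 2 alone at that dose and assumes that it varies as the other groups do. Without OE APAP 2, which leaves OE APAP 1 alone under the same assumption, it gave 1413. Without Het APAP 2 it gave 908 and without Het APAP 3 it gave 666. In the fit on all libraries 9 of the 34 named genes higher in the strong livers were lower in OE than in Het (4.95% of all genes), and 18 of the 34 lower in the strong livers were higher (8.74% of all genes). All 3 Het livers were strong and 1 of the 2 OE livers at 200 mg/kg was mild, so the choice of these genes favoured that direction, and nothing is read from the counts. Nampt was higher in OE than in Het by 0.89 ± 0.24 (limma adjusted p = 0.032), with 36.0 FPKM in OE APAP 1 and 18.5 in OE APAP 2. In Het minus WT after APAP it was not lower (0.16 ± 0.22, limma adjusted p = 0.74). Cps1 was higher in OE than in Het by 1.74 ± 0.35 (limma adjusted p = 0.0108), while S100a8 had -3.33 ± 1.24 (limma adjusted p = 0.11) and did not pass. Both genes were named by the split, so nothing is read from these 2 p-values either. The averaged response gave 878 genes without OE APAP 2 and 1296 without OE saline 2. With lane in place of perfusion as a term, the 3 comparisons gave 146, 750 and 4 genes. Lane L005 held all WT APAP livers and no saline liver, so that term cannot separate drug from lane in WT.

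**Figure D4:**
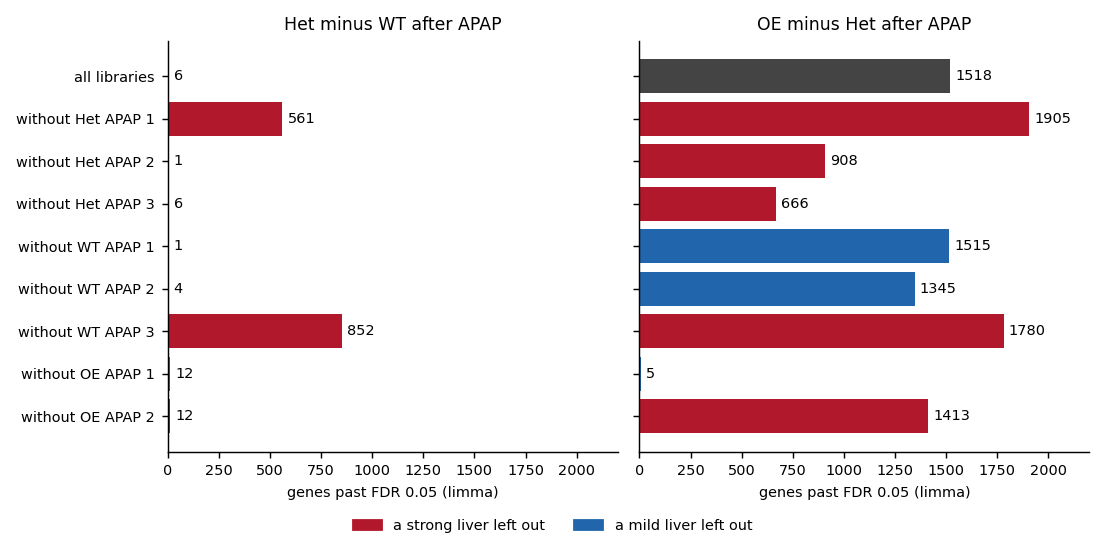
Number of genes past a false discovery rate of 0.05 in limma for 2 labelled genotype comparisons, with all libraries (grey) and with each APAP liver at 200 mg/kg left out (red for a strong, blue for a mild liver). Het minus WT goes from 6 genes to 852 without WT APAP 3, and OE minus Het from 1518 to 5 without OE APAP 1.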

How the data were processed

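The RNA of 17 mouse liver samples was sequenced from both ends after a stranded total RNA kit, per the labels' protocols. Per the submitters' processing notes, the tools of the authors were Cufflinks 2.2.1 and Cuffdiff, after TopHat2 2.0.9 and bcl2fastq 2.17.1.14, with GRCm38.p5 as the genome. The annotation and the strand setting are not given in the sources used here. As unit of the deposited values FPKM was inferred from the tools named and the range of the values. Without counts, sequencing depth remains unknown and intervals for counting error are not given. The sum of FPKM per library was 466883 to 916006. No 2 libraries held identical values.

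Of 46073 gene IDs 45139 had a symbol in the GENCODE annotation of GRCm38, which also gave positions. Genes at 0 throughout a genotype and drug block, while another genotype had a mean of at least 10 FPKM under the same drug, were treated as failed estimates with neighbours within 100 kb at 0 in the same blocks. This removed 107 genes, 29 of them protein-coding, among them Hpx, Fga, Fgb, Serpina3m and Trf. The rule was chosen after seeing the data.

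Strong and mild sets were compared by the difference of their medians of log2(FPKM + 1), which understates changes of low genes, and by overlap of single values, for genes averaging at least 1 FPKM in the 9 livers. Position on a list is the median over its genes of log2(FPKM + 1) minus the saline median. Named were Nampt, the 12 higher and 12 lower genes with the largest difference among those without overlap and with a median of at least 5 FPKM in the higher set (no predicted genes), and up to 4 non-overlapping members of each list. The members, the lists and these rules were chosen with earlier results of these data known. Genes given outside these rules were picked after their values were seen, also where the text does not mark them so. Examples are Orm2, Hp, Fgg, Ccr2, Ccl2, Cyp2e1, Hbb-bs and Ddit3. limma 3.58.1 (trended and robust prior, R 4.3.3) fitted 8 label groups and a perfusion term to log2(FPKM + 1) of all 17 libraries, with 8 residual degrees of freedom and Benjamini-Hochberg adjustment over 11090 genes. Both scripts were tested on simulated data. The values of 1 named gene are not reported here, though it enters the counts over lists and over all genes. Promoter windows were found for 18 of 24 genes looked up. Alternatives were other pseudocounts, filters, scalings and thresholds, libraries left out, and subsets by lane, label and perfusion, the OE subset being added after seeing the data.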

Additional observations from a re-analysis of the deposited data

Results flagged for a closer look

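Within the 5 strong and the 4 mild livers, a liver was picked out where its gap to the nearest other liver exceeded Dixon's critical share of the set's range on the log2 scale. Of 138 sets of values (69 named genes) 8 met this, near the 1 in 20 that chance gives for independent, unselected values. Apart from Nampt, these genes were picked for a difference between the sets, and all share the same livers. Nothing is read from the number of flags. OE APAP 1 accounted for 4 of the 8, all in the mild set and all high. Hspd1, a mitochondrial chaperone, had 310 FPKM there against 171 to 181 in the other mild livers. Gsta2 had 37.2 against 18.7 to 21.0, the proteasome subunit Psmc2 had 47.8 against 33.3 to 35.2, and Hfe2, the iron regulator hemojuvelin, had 22.0 against 19.1 to 19.3.

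OE APAP 2 stood apart from the other strong livers for Slfn4 (0.785 FPKM against 6.58 to 9.96) and for Cox5a (106 against 80.8 to 87.1), on the side of the mild livers in both. Het APAP 3 had the lowest Tfrc, the transferrin receptor, of the strong livers (7.49 against 10.8 to 11.5). WT APAP 2 had the highest Cxcl2 of the mild livers (0.640 against 0.113 to 0.175).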

How the results depend on the processing

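The main counts were 103 genes higher and 31 lower. They were 180 and 47 with a pseudocount of 0.1, and 62 higher with a mean of at least 5 FPKM. With quantile normalisation they were 95 and 30, but 76 and 15 of them were among the main calls. At a threshold of 800 FPKM 138 were lower. With subsets they were 339 and 299 in lane L005, 324 and 309 in livers not perfused, 333 and 127 in WT livers, 280 and 151 in OE livers, and 89 and 20 without Het livers. Leaving out 1 liver gave 98 to 267 higher and 23 to 222 lower.

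For Het minus WT (1 higher, 5 lower) the counts were 5 and 68 with a pseudocount of 0.1, 23 and 67 with quantile normalisation, 15 and 95 with failed estimates kept, and 247 and 503 with lane in place of perfusion. There were 54 higher without a filter and 0 lower without a perfusion term. For OE minus Het (969 and 549) lane gave 1 and 3 and no filter gave 456 higher, and for the averaged response (1087 and 1474) lane gave 68 and 78. Leaving out 1 library gave ranges of 1 to 305 and 0 to 547 for Het minus WT, 4 to 1210 and 1 to 695 for OE minus Het, and 336 to 1171 and 542 to 1560 for the averaged response. The signs of Hfe2 (0.062), Anxa5 (-0.15) and Hspd1 (0.036) in the averaged response reversed with lane in place of perfusion. The cause of these changes was not tested.

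List medians near 0 (Nrf2, proteasome, cholesterol, erythroid) changed sign with quantile normalisation. Within OE livers those of the complement, secreted plasma protein, heat shock, lipogenesis, cholangiocyte and cholesterol lists did. So did the Nrf2, endothelial and ER stress medians there, and that of the growth hormone and male-biased list. The metallothionein, clock, lipogenesis, endothelial, ER stress, erythroid, Nrf2, cholesterol and proteasome medians also did with other livers left out or another threshold. No paired analysis was possible because the replicate numbers follow accession order and pair no animals. Depth is unknown, which limits statements on genes near 0 FPKM.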

Other observations

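The genes given here were picked after their values were seen, except Ly6d, which was among the 12 higher genes. Ly6d, a surface protein of epithelial and B cells, had 119 FPKM in Het APAP 2, 3.83 to 12.8 in the other strong livers and 0 to 3.61 in the mild ones. Spp1, osteopontin, a listed progenitor marker, had 150, 163, 82.4, 118 and 44.3 FPKM in the strong livers and 21.2, 45.2, 17.1 and 17.4 in the mild ones, overlapping only through OE APAP 2 and WT APAP 2. Timp1, an inhibitor of matrix proteases, had 8.45 to 13.6 FPKM in the Het livers and WT APAP 3, 1.59 in OE APAP 2, and 0 to 1.87 in the mild livers. Serpina6, the corticosteroid carrier of plasma, had 0.727 and 0.500 FPKM in Het APAP 2 and 3, 10.7 and 14.5 in Het APAP 1 and WT APAP 3, and 60.1 in OE APAP 2, against 33.6 to 75.3 in the mild livers. Prtn3, a neutrophil protease, did not follow calprotectin: it had 3.16 to 9.66 FPKM in the strong livers and 9.38, 11.7, 7.23 and 0.228 in the mild ones.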
